A study of Homo sapiens with 6 samples.

Results

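The 4 neuregulin genes NRG1, NRG2, NRG3 and NRG4 and the 4 genes of the EGF receptor family, EGFR, ERBB2, ERBB3 and ERBB4, were examined in SH-SY5Y cells after knockdown of PSF. The genes were taken by symbol from the deposited RNA-seq table, and all 8 had a row among its 21301 genes. SH-SY5Y is an established human neuroblastoma line that is used as a model of neuronal cells. One group of 3 libraries came from cells 72 h after transfection with siPSF at 10 nM, an siRNA against the RNA-binding protein PSF (gene SFPQ), and the other group of 3 from cells treated with siControl for the same time. A single siRNA against PSF was sequenced, in a single cell line, so that an effect of PSF loss and an effect of that siRNA on other transcripts cannot be told apart. The genes were listed after results of these libraries were known, and the set was selected on the fall of NRG3 in these same libraries, so the values of NRG3 are given as a description without a test.

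Neuregulins are growth factors with an EGF-like domain, which is released from, or presented by, a membrane-bound precursor. They bind ERBB3 and ERBB4, and these receptors then pair with each other or with ERBB2, which has no known ligand of its own and serves as the shared partner. ERBB3 has little kinase activity and signals through its partner, whereas EGFR is bound by EGF, TGFA and related ligands but not directly by most neuregulins. The activated pairs recruit adaptors that switch on the RAS–ERK and PI3K–AKT pathways, and in the nervous system neuregulin signalling is known for its part in Schwann cell development, in myelination and in the wiring of inhibitory interneurons.

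The deposited read counts summed to between 101540520 and 132420931 per library. Levels are given as CPM, read counts scaled to the TMM-normalized library size, which do not correct for transcript length. Groups were compared by the quasi-likelihood test of edgeR, with Benjamini-Hochberg correction across the 19694 genes left after a filter on low counts. In these bulk libraries, fewer cells of a type and less RNA per cell cannot be told apart. A gene was called at an adjusted p under 0.05. SFPQ was at 372, 356 and 401 CPM in the siControl libraries and at 209, 193 and 165 CPM in the siPSF libraries. Of all tested genes, 8.27% were called lower and 6.65% were called higher after siPSF, and the median log2 fold change was 0.01. With limma on log2(FPKM + 0.1), 1637 genes were lower and 671 higher, against 1628 lower and 1310 higher in the count-based fit. Markers of sympathetic neuroblasts were all present (12 of 12 genes, summing to between 5662 and 6250 CPM in siControl and between 4987 and 6172 CPM in siPSF). Of these markers 3 were called lower and 1 higher. DBH, which makes noradrenaline, went from a mean of 1738 to 1085 CPM, ELAVL4, a neuronal RNA-binding protein gene, from 272 to 198 CPM and TH, the first enzyme of catecholamine synthesis and low throughout, from 0.741 to 0.320 CPM, while GATA3, a transcription factor of sympathetic neurons, went from 400.3 to 493 CPM. Only 3 of 8 Schwann and glial markers had a row, which excluded SOX10, and their sum lay between 25.5 and 29.0 CPM in siControl and between 25.2 and 35.4 CPM in siPSF. Of the 8 mesenchymal markers 7 had a row, and their sum was between 374 and 391 CPM in siControl and between 338 and 372 CPM in siPSF. FN1, the fibronectin gene, was called lower (from a mean of 78.7 to 52.0 CPM). The others were not called, and their log2 fold changes went both ways, from -0.15 for PRRX2 to 0.55 for COL1A1. Of the 6 epithelial markers, 5 had a row and summed to between 2.49 and 3.16 CPM in siControl and between 4.09 and 6.97 CPM in siPSF. EPCAM and ESRP1 were called higher, and KRT8 and KRT18 were not called. CDH1, too low to be tested, averaged 0.0750 CPM in siControl and 0.0433 CPM in siPSF. The part of these markers in the results was not tested.

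NRG3 was the member that differed most between the groups, and the other 7 did not pass the test or were too low for it. Of the 7 members that passed the filter on low counts, 1 was called lower and 0 were called higher, where 8.27% of all tested genes were called lower and 6.65% higher. The called gene was NRG3, for whose fall the set was chosen, so nothing is read from this count. The median log2 fold change of these 7 genes was -0.20, and 5 of them had a negative value. NRG4 did not pass the filter and has no fitted value.

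NRG3 encodes a neuregulin that is expressed mainly in the nervous system and binds ERBB4. It had 198, 341 and 385 counts in the siControl libraries, or 1.63, 2.56 and 3.06 CPM. The siPSF libraries had 59, 61 and 56 counts, or 0.497, 0.578 and 0.568 CPM. The highest siPSF value was well under the lowest siControl value, and the siControl libraries varied more among themselves than the siPSF libraries did. Averages were 2.41 ± 0.725 for siControl and 0.548 ± 0.0443 for siPSF (CPM, mean ± SD of 3 libraries), a remaining level of 22.7%. The log2 fold change was -2.14, at rank 30 of the 19694 genes when ordered from the largest fall. The set was chosen for this fall, so the value and its rank are a description only. The smallest fall among fits that each left out a library was -1.94, without siControl replicate 3.

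NRG1 encodes the prototype of the family, the main neuregulin of Schwann cell development. Its level was 7.99, 7.84 and 8.76 CPM in siControl and 6.52, 7.50 and 4.85 CPM in siPSF. All siPSF values were below all siControl values, as in 17.8% of all tested genes, but the gap between the nearest libraries was small and siPSF replicate 3 was lower than the other siPSF libraries. The log2 fold change was -0.38 (95% interval from -0.72 to -0.04), with an adjusted p of 0.12 by edgeR. Across the alternative settings the adjusted p lay between 0.050 and 0.41, and no setting called NRG1. Without siPSF replicate 3 the log2 fold change was -0.22.

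NRG2 encodes a neuregulin with an EGF-like domain similar to that of NRG1. The siControl libraries held 5.38, 5.31 and 5.15 CPM of NRG2 and the siPSF libraries held 5.76, 5.80 and 5.34 CPM. The groups overlapped, and the log2 fold change was 0.09 (adjusted p = 0.66 by edgeR). Its 95% interval ran from -0.17 to 0.36.

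NRG4, a small neuregulin that signals through ERBB4 and is best known from adipose tissue, was near the limit of detection. The table listed 6, 8 and 10 reads in siControl and 17, 9 and 9 reads in siPSF, 24 and 35 in all. These values do not overlap when given as CPM (0.0493 to 0.0794 in siControl and 0.0853 to 0.143 in siPSF), but the lowest siPSF library and the highest siControl library held 9 and 10 reads, so a difference was not detectable at this depth.

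**Figure D1:**
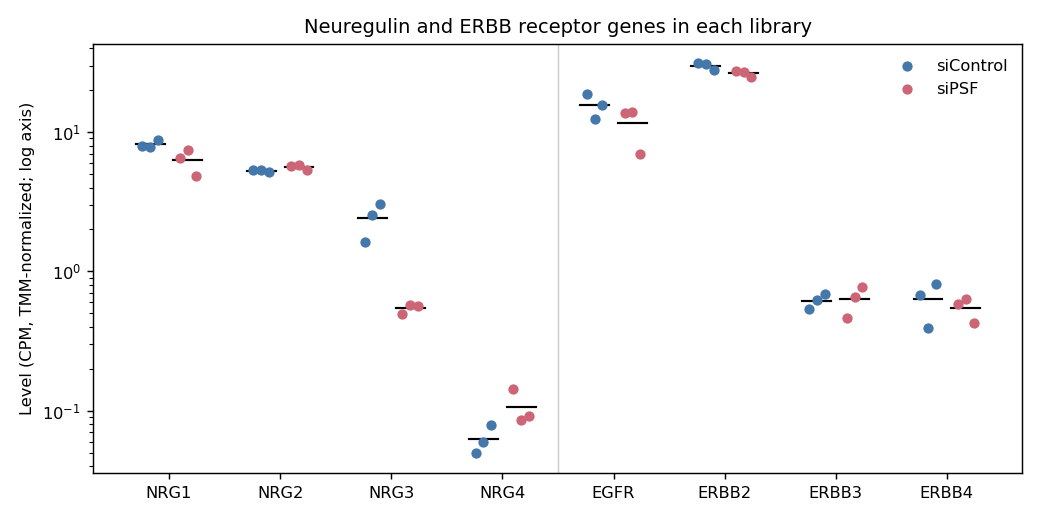
Level of each member in each library, in CPM on a log axis, with siControl in blue, siPSF in red and the group mean as a black bar. NRG3, for whose fall the set was chosen, separates clearly, from 1.63 or more in siControl to 0.578 or less in siPSF. The groups of NRG1 and ERBB2 do not overlap either, while those of EGFR, NRG2, ERBB3 and ERBB4 do. NRG4, at 6 to 17 reads per library, was too low to be tested, and its groups are apart in CPM but overlap in read counts. In 17.8% of all tested genes every siPSF library was below every siControl library, and in 16.7% above.

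Among the receptors, ERBB2, the ligand-less partner of the family, was the most abundant. It stood at 31.1, 30.9 and 28.2 CPM in siControl and at 27.6, 27.0 and 24.7 CPM in siPSF. Each siPSF library was below each siControl library, as in 17.8% of all tested genes, with siPSF replicate 3 again the lowest. The log2 fold change was -0.18 (95% interval from -0.39 to 0.02; edgeR, adjusted p = 0.21), and the counts behind it, from 2438 to 4119 per library, were the deepest of the 8 genes.

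EGFR, the receptor for EGF and TGFA, had 18.8, 12.5 and 15.7 CPM in siControl and 13.6, 14.1 and 7.02 CPM in siPSF. The groups overlapped, and 1 library, siPSF replicate 3, lay far below the others. The log2 fold change was -0.43 (95% interval from -0.92 to 0.05; edgeR, adjusted p = 0.22). It was -0.18 without siPSF replicate 3 and -0.28 without siControl replicate 1, so the size of the difference depended on single libraries.

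ERBB3, the kinase-impaired receptor that binds NRG1 and NRG2, was at 0.534, 0.622 and 0.691 CPM in siControl and at 0.463, 0.654 and 0.771 CPM in siPSF, from 55 to 87 reads per library. The siPSF values enclosed all 3 siControl values. Its log2 fold change was 0.03 (95% interval from -0.52 to 0.58; edgeR, adjusted p = 0.96).

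ERBB4, the receptor that can bind every neuregulin, also had few reads. It was measured at 0.682, 0.390 and 0.818 CPM in siControl and at 0.581, 0.635 and 0.426 CPM in siPSF, from 42 to 103 reads per library. The groups overlapped, and the lowest value of all was a siControl library. The log2 fold change was -0.20 (95% interval from -0.86 to 0.47; edgeR, adjusted p = 0.71), a wide interval at these low counts.

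**Figure D2:**
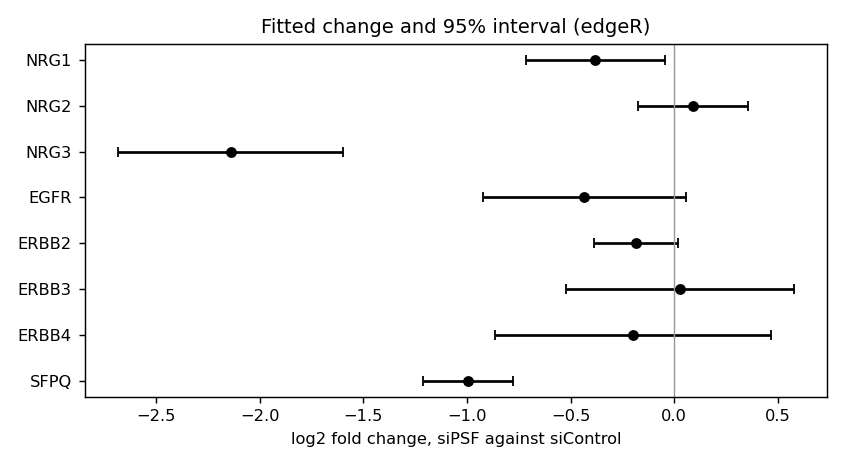
Log2 fold change of siPSF against siControl for the 7 members with a fit and for SFPQ, with the 95% interval of edgeR's quasi-likelihood fit as bars. NRG3 is at -2.14, and because the set was chosen for its fall, nothing is read from its interval. Among the other members only the interval of NRG1 does not reach 0.

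To set the members in order, the deposited FPKM values, which are scaled to transcript length, were used. In siControl the mean was 5.60 FPKM for ERBB2, 1.48 for EGFR, 1.34 for NRG2, 1.05 for NRG1, 0.531 for NRG3, 0.104 for ERBB3, 0.0485 for ERBB4 and 0.0040 for NRG4. EGFR (1.16 to 1.75 FPKM) and NRG2 (1.26 to 1.42 FPKM) overlapped, and every other pair of neighbours in this order was separate in all 3 siControl libraries. After siPSF, NRG3 stood at 0.0676, 0.101 and 0.119 FPKM and overlapped ERBB3 at 0.0726, 0.111 and 0.133 FPKM, whereas in siControl it had stood above ERBB3 in every library. In this group EGFR (0.620 to 1.25 FPKM) also overlapped NRG1 (0.859 to 0.993 FPKM).

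The receptors together summed to 7.22 ± 0.355 FPKM (SD, n = 3) in siControl and 5.87 ± 0.629 FPKM (SD, n = 3) in siPSF. ERBB2 made up 77.6% ± 3.35 (SD, n = 3) of that sum in siControl and 80.2% ± 4.004 (SD, n = 3) in siPSF, a difference smaller than the spread between libraries. ERBB3 and ERBB4, the receptors that bind neuregulins, contributed 1.44% ± 0.235 and 0.669% ± 0.242 in siControl and 1.84% ± 0.714 and 0.672% ± 0.0736 in siPSF (SD, n = 3 each). Among the neuregulins, NRG3 made up 11.5%, 21.1% and 21.0% of the summed FPKM in the siControl libraries and 2.57%, 3.99% and 5.33% in the siPSF libraries. NRG2 made up 49.8%, 46.4% and 41.7% in siControl and 63.9%, 56.5% and 56.0% in siPSF, a larger share in every siPSF library, while its own level was not called. The sum includes NRG3, for whose fall the set was chosen, so nothing is read from this larger share. The NRG2 length implied by counts and FPKM was also lowest in siPSF replicate 1 (3.37 kb), the library of its largest share. NRG1 held 36.0% ± 3.21 in siControl and 37.0% ± 3.35 in siPSF (SD, n = 3 each).

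**Figure D3:**
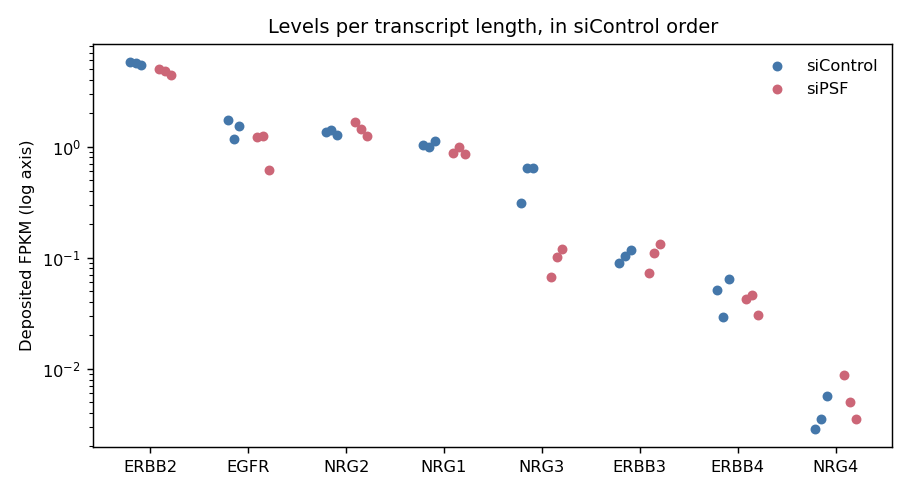
Deposited FPKM of the 8 genes on a log axis, ordered by the siControl mean, with the 3 libraries of each group as points (siControl in blue, siPSF in red). NRG3 drops from between 0.311 and 0.645 FPKM to the range of ERBB3, whereas the order of the other means stays nearly the same. The siPSF mean of NRG2 is above that of EGFR, but these genes overlapped in siControl and neither was called.

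The members differ greatly in size, which the choice of genes did not use. In the RefSeq annotation of GRCh38, NRG3 covers 1112 kb of chromosome 10 (81875194 to 82987179), ERBB4 covers 1163 kb of chromosome 2 (211375717 to 212538802) and NRG1 covers 1135 kb of chromosome 8 (31639245 to 32774046). NRG2 spans 197 kb of chromosome 5 (139846781 to 140043299), EGFR 193 kb of chromosome 7 (55019017 to 55211628) and NRG4 125 kb of chromosome 15 (75935393 to 76060240). The short members are ERBB2, 40.6 kb on chromosome 17 (39688094 to 39728658), and ERBB3, 23.4 kb on chromosome 12 (56080108 to 56103505). In the canonical GENCODE transcripts, 99.7% of NRG3 and 99.0% of ERBB4 was intron, with a longest intron of 483 kb and 414 kb, against 84.1% in ERBB2 and 75.9% in ERBB3. The canonical transcript of NRG1 covers 226 kb of its locus.

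Long genes as a class were lower after siPSF, and the fitted values of the 3 longest members were spread over the range of that class. Of the 53 tested protein-coding genes that span at least 1000 kb, 30 were called lower (56.6%) and 0 were called higher, with a median log2 fold change of -0.89 and quartiles of -1.38 and -0.44. Ordered from the largest fall, NRG3 was at rank 2 of these 53, NRG1 at rank 41 and ERBB4 at rank 46. NRG3, for whose fall the set was chosen, lay below the lower quartile of genes of its size, so nothing is read from its place. The fitted values of NRG1 (-0.38) and ERBB4 (-0.20) lay above the upper quartile, but both 95% intervals included that quartile. The canonical transcript of NRG1 spans 226 kb. In the 200 to 500 kb class the quartiles were -0.51 and -0.02, and the value of NRG1 lies between them. Among the 1637 genes of 100 to 200 kb, 16.6% were called lower and the quartiles were -0.31 and 0.06. The fitted value of EGFR (-0.43) lay below them and that of NRG2 (0.09) above, each with a 95% interval that included the nearer quartile. For genes under 50 kb, the class of ERBB2 and ERBB3, the median was 0.06 and 3.86% were called lower.

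**Figure D4:**
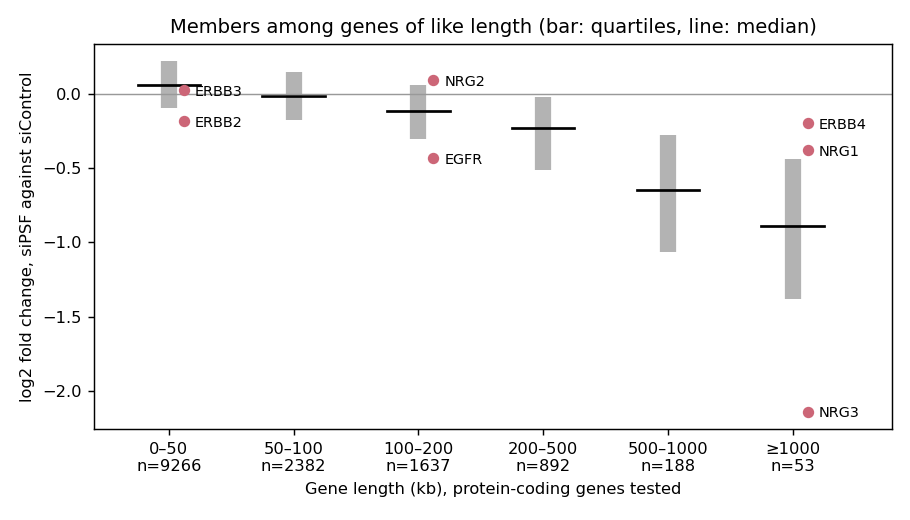
Log2 fold change (siPSF against siControl) of the 7 members with a fit, as red points, over the quartiles (grey bar) and median (black line) of all tested protein-coding genes in the same class of gene length in kb. The median falls to -0.89 at 1000 kb or more, where NRG3, for whose fall the set was chosen, lies far below the bar. The points of NRG1 and ERBB4 lie above it, but their intervals, which are not drawn, include its upper end. The canonical transcript of NRG1 spans 226 kb.

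To show how the start regions of NRG3 and ERBB4 differ, their RefSeq promoter windows on GRCh38.p14 are printed 5′ to 3′. They run from 250 bases before the gene start to 50 after it, with each CG dinucleotide in capitals. NRG1, of like length, was left out of the windows used here. The window of NRG3 is chr10:81874944-81875243 on the plus strand and that of ERBB4 is chr2:212538753-212539052 on the minus strand.
NRG3: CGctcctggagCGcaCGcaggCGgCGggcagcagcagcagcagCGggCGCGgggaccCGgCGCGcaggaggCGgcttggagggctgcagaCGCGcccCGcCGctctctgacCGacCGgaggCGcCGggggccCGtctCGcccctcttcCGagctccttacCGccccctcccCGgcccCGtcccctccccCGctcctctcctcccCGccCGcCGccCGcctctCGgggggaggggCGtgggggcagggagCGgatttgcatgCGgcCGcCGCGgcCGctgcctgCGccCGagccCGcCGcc
ERBB4: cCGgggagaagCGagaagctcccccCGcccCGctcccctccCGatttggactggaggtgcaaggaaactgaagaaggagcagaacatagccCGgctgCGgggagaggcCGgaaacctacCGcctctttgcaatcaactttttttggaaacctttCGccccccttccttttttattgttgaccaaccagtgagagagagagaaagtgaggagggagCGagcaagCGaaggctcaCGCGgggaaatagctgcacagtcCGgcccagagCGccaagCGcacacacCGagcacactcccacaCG
The NRG3 window held 43 CG dinucleotides at 81.0% G and C, and the ERBB4 window held 19 at 59.0%. CG reads the same on both strands, and 96.0% of the 35116 windows of this kind held at least 1, with a median of 14. Fewer CG dinucleotides than in NRG3 were found in 95.02% of these windows and fewer than in ERBB4 in 57.1%. EGFR (33), NRG2 (25) and ERBB2 (24) lay between them in the windows at their annotated starts. The NRG4 window, which was not at its annotated start, held 6. These counts describe the sequence alone, and their part in the expression values was not tested.

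The 5 genes whose pattern over the 6 libraries was closest to that of NRG3 were MGLL, TNR, XYLT1, INHBA and LOC105372185, by Euclidean distance between centred log2 CPM values among 14678 other genes that averaged 1 CPM or more. MGLL encodes monoglyceride lipase, which breaks down an endocannabinoid, and had the smallest distance (0.37). It was at 1.22, 1.94 and 1.96 CPM in siControl and 0.421, 0.426 and 0.507 CPM in siPSF, and siControl replicate 1 was its lowest control library, as in NRG3. TNR encodes the extracellular matrix protein tenascin-R (distance 0.46), XYLT1 a xylosyltransferase that starts glycosaminoglycan chains (0.58), INHBA the activin A subunit (0.59) and LOC105372185 is a lncRNA gene (0.64). All share the difference between the groups with NRG3, which sets most of this likeness, and with 6 libraries the ranking is a description only. Their gene lengths ran from 20.3 kb for INHBA to 428 kb for TNR.

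Other genes of the pathway were taken from 7 lists with 145 genes, of which 135 were tested. Of these, 19 were called lower (14.1%) and 5 were called higher (3.70%), beside 8.27% and 6.65% of all tested genes, and the median log2 fold change was -0.08 beside 0.01. The count of lower genes was 11 without siControl replicate 2 and 12 without siControl replicate 3, and the count of higher genes was 2 and 3 there, 3 without siPSF replicate 1 and 3 without siPSF replicate 2. These shares were not matched for gene length. Of protein-coding genes, 3.86% were called lower under 50 kb, 16.6% at 100 to 200 kb and 31.4% at 200 to 500 kb. The called pathway genes ran from 5.15 kb (SPRY2) to 1113 kb (WWOX), and the part of length was not tested. Of the 7 other ligands of the EGF family, 2 had a row in the table. TGFA, a ligand of EGFR, was at 1.03, 0.757 and 0.945 CPM in siControl and at 0.741, 0.597 and 0.314 CPM in siPSF. Every siPSF value was below every siControl value, as in 17.8% of all tested genes. The log2 fold change was -0.71 (95% interval from -1.37 to -0.06, adjusted p = 0.13 by edgeR). HBEGF, which binds EGFR and ERBB4, averaged 3.06 ± 0.165 CPM without and 3.42 ± 0.190 CPM with PSF knockdown (mean ± SD of 3 libraries, adjusted p = 0.49 by edgeR). Its siPSF values were all above its siControl values, as in 16.7% of all tested genes, but the nearest were 3.22 and 3.21 CPM. The ligands EGF, AREG, EREG, BTC and EPGN had no row and were not analysed here, since the table lists only genes with at least 1 read in every library.

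Of the 16 tested proteases and regulators that shed or cleave ligands and receptors, 1 was called lower (6.25%, beside 8.27% of all tested genes) and 2 were called higher (12.5%, beside 6.65%). ADAM12, a membrane protease that can shed EGF family ligands, fell from 149 ± 12.3 to 94.7 ± 14.3 CPM (mean ± SD of 3 libraries), or -0.65 as a log2 ratio (adjusted p = 0.0026 by edgeR). ADAM8, a related protease, rose from 3.03 ± 0.453 to 5.94 ± 0.626 CPM (mean ± SD of 3 libraries), or 0.97 as a log2 ratio (adjusted p = 0.0015 by edgeR). RHBDF2, an inactive rhomboid that brings the sheddase ADAM17 to the surface, rose by 0.42 on the log2 scale (adjusted p = 0.019 by edgeR), a call that was lost in 4 of the 6 fits without a library. The remaining 13 genes were not called.

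The adaptors and the proteins that couple receptors to RAS or PI3K gave 3 lower (9.09%) and 1 higher call (3.03%) among 33 genes tested, beside 8.27% and 6.65% of all tested genes, with a median log2 fold change of -0.03. GAB2, a docking protein that links receptors to PI3K and SHP2, had 290, 319 and 313 CPM in siControl and 178, 201 and 193 CPM in siPSF. Its log2 fold change was -0.69 (adjusted p = 3.4e-04 by edgeR), and no siPSF library came near the siControl range. SHC3 and SHC2, the neuronal members of the SHC adaptor family, had log2 fold changes of -0.85 and -0.38 (adjusted p = 0.0014 and 0.015 by edgeR). SHC3 was called in all 6 fits without a library and SHC2 in 4 of them. PIK3R2, a regulatory subunit of PI3K, rose by 0.33 on the log2 scale (adjusted p = 0.027 by edgeR), and this call was kept in 1 of the 6 fits without a library. Of the 18 kinases and regulators of the ERK and AKT cascades, MTOR alone was called (5.56% lower, beside 8.27% of all tested genes), with a log2 fold change of -0.28 (adjusted p = 0.035 by edgeR), and in 3 of the 6 fits without a library it was not called.

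Among the 22 tested genes that restrain the receptors, 2 were called lower (9.09%) and 1 higher (4.55%), beside 8.27% and 6.65% of all tested genes. NEDD4, a ubiquitin ligase of the family that targets ERBB3 and ERBB4, fell from 18.7 ± 2.03 to 11.5 ± 1.60 CPM (mean ± SD of 3 libraries), or -0.70 as a log2 ratio (adjusted p = 0.0034 by edgeR). PTPN9, a tyrosine phosphatase, had a log2 fold change of -0.33 and SOCS5, an inhibitor of cytokine and EGF receptor signalling, one of 0.47 (adjusted p = 0.040 and 0.035 by edgeR), and each was called in 1 of the 6 fits without a library. The group of receptor partners and folding factors had 4 lower (19.0%) and 1 higher call (4.76%) among 21 genes, beside the same 8.27% and 6.65%. WWOX, a WW domain protein known to bind the ERBB4 intracellular domain, had a fitted log2 ratio of -1.36 (adjusted p = 4.5e-05 by edgeR). It is itself a gene of 1113 kb. ERBIN, a scaffold that binds ERBB2, and CPE, carboxypeptidase E, had log2 fold changes of -0.48 and -0.46 (adjusted p = 0.016 and 0.026 by edgeR), and HSP90AB1, a chaperone on which ERBB2 depends, rose by 0.37 on the log2 scale (adjusted p = 0.010 by edgeR). The call of ERBIN and that of CPE were each kept in 4 of the 6 fits without a library. The other called gene, SNTB2, named after its value was seen, had a log2 ratio of -0.35 (adjusted p = 0.0495 by edgeR).

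The genes that ERK signalling induces, many of which feed back on it, had the most calls of any list. Of 23 genes, all of them tested, 8 were called lower (34.8%, where 8.27% of all tested genes were) and 0 were called higher, and 19 had a negative value, with a median log2 fold change of -0.32. SPRY2, a feedback inhibitor of receptor tyrosine kinases, was at 96.4, 112 and 125 CPM in siControl and at 56.1, 54.1 and 59.6 CPM in siPSF. Its log2 fold change was -0.97 (adjusted p = 1.2e-04 by edgeR), and the groups were far apart. DUSP6, the phosphatase that switches off ERK, went from 58.6 ± 6.54 to 40.9 ± 4.92 CPM (mean ± SD of 3 libraries), or -0.52 as a log2 ratio (adjusted p = 0.0093 by edgeR). CCND1, the cyclin D1 gene, fell from 1425 ± 118 to 828 ± 158 CPM (mean ± SD of 3 libraries; log2 ratio -0.78, adjusted p = 0.0020 by edgeR). PHLDA1, another ERK-induced gene, fell by 0.98 on the log2 scale (adjusted p = 6.5e-04 by edgeR). The other 4 called genes, named after their values were seen, were the ETS factors ETV4 and ETV5, the phosphatase DUSP5 and the early-response factor EGR3, which is a known target of neuregulin signalling in muscle spindles, with log2 fold changes of -0.44, -0.49, -0.82 and -1.55. In that order their adjusted p by edgeR was 0.0094, 0.0096, 0.027 and 0.020. The calls of DUSP5 and EGR3 were lost without siControl replicate 2, without siControl replicate 3 and without siPSF replicate 1. The call of ETV4 was lost without siControl replicate 2. EGR3 was low, at between 0.395 and 0.516 CPM in siControl and between 0.0758 and 0.246 CPM in siPSF.

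Not all genes of the list were lower, and those named next were chosen after their values were seen. SPRY4 (-0.13), SPRED2 (-0.10), DUSP7 (-0.10), FOS (-0.18) and EGR2 (-0.17) had small fitted values that did not pass the test. FOSL1, DUSP4, MYC and ETV1 had positive ones. FOSL1 was at 5.46, 4.86 and 3.52 CPM in siControl and at 9.21, 11.5 and 3.87 CPM in siPSF, and DUSP4 at 179, 147 and 144 CPM in siControl and at 213, 225 and 128 CPM in siPSF. In both, siPSF replicate 3 was the lowest siPSF library, as it was in EGFR, TGFA and EGR1. Without that library FOSL1 and DUSP4 were called higher, 9 genes were called lower and the median was -0.24. Without siControl replicate 2, 5 genes were called lower (SPRY2, DUSP6, ETV5, CCND1 and PHLDA1), and without siControl replicate 3 the median was -0.16. ERK is driven by many receptors besides those of this family, and the part of the neuregulins in these values was not tested.

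**Figure D5:**
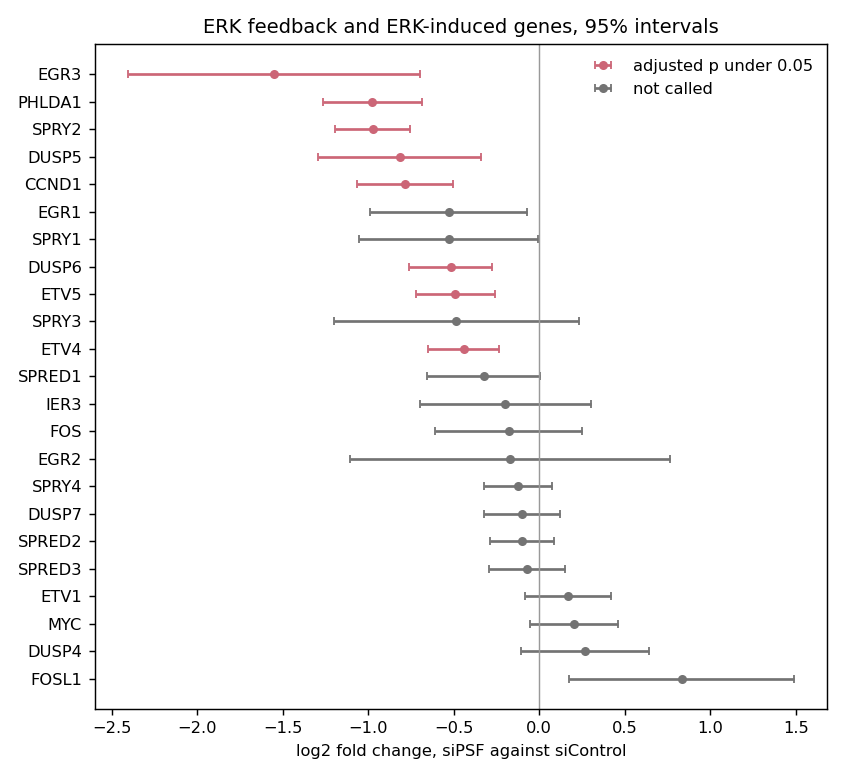
Log2 fold change (siPSF against siControl) of the 23 ERK feedback and ERK-induced genes with 95% intervals from edgeR's fit, called genes in red and the others in grey. The 8 called genes all lie below 0, and FOSL1, at 0.83, is the highest of the 4 genes with positive values.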

How the data were processed

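RNA was sequenced from 3 siControl and 3 siPSF libraries of SH-SY5Y cells, described in the study as biological triplicates. The authors deposited 1 table of read counts per gene and FPKM per gene and library. The deposited counts are not normalized, and the deposited FPKM are by their name scaled to library size and transcript length. How the authors computed FPKM is not given in detail in the sources used here, and counts and FPKM of a gene did not imply the same length in every library. The submitters' processing notes name Trimmomatic, HISAT2 2.1.0, StringTie 2.1.3b and GRCh38, whereas the methods of the study name TopHat, so the aligner behind the values is uncertain. Use of strand in counting is not given in the sources used here, and reads of overlapping genes may be shared. Every gene in the table had at least 1 read in each library, and genes without a row were not analysed here.

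Counts were tested in edgeR 4.0.16 (R 4.3.3) with TMM factors, filterByExpr and the quasi-likelihood F-test, with an adjusted p under 0.05 as the threshold, at a common biological coefficient of variation of 12.6%. Alternatives used DESeq2 1.42.0, limma 3.58.1 on log2(FPKM + 0.5) and log2(FPKM + 0.1), no filter, a replicate block and the omission of each library. On simulated counts with folds of 2 and 4 for this comparison (19521 genes), 97% of changed genes were recovered and 8.49% of calls were false. Replicates differed beyond counting noise (chi-square per degree of freedom of 22.41 or more), so none was counted as a repeat. RefSeq matched 20822 gene IDs (97.8%) and supplied gene positions, and its promoter windows were used for 6 of the 8 genes. Member windows on chromosome 8, which holds NRG1, were left out before this count. Exon structures came from canonical GENCODE transcripts.

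The genes and lists were chosen with earlier results of these data known. Named genes were the 8 members, SFPQ, the called genes of each list up to the 4 smallest p-values (or, with none called, the 2 with the highest mean CPM), genes overlapping a member, the marker genes and the 5 genes closest to NRG3.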

Additional observations from a re-analysis of the deposited data

How the results depend on the processing

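NRG3, for whose fall the genes were chosen, had log2 values from -2.36 to -1.65 over 11 alternatives, given as a description. It did not pass the filter of limma on log2(FPKM + 0.5), where 0 of the 8 genes were called lower. NRG1, NRG2, EGFR and ERBB2 kept their direction and were not called in any of 12 alternatives. The least abundant receptors changed sign when a library was left out. ERBB3 ranged from -0.15 to 0.21 and was negative without siControl replicate 1 (-0.07), siPSF replicate 2 (-0.0052) or siPSF replicate 3. ERBB4 ranged from -0.46 to 0.031 and was positive without siControl replicate 3. Over the same 6 fits, 1 of the 8 genes was called lower in each. That gene was NRG3, for whose fall the set was chosen, so nothing is read from this count. In these 6 fits, pathway genes called lower numbered 11 to 20 and higher 2 to 6, and ERK-induced genes called lower 5 to 9 and higher 0 to 2. Both FPKM-based fits called 2 pathway genes higher. With the replicate block, 1 ERK-induced gene (FOSL1) was called higher, 1 of the 8 genes (again NRG3) was lower, and 1640 genes were lower and 1389 higher in all. The labels number the replicates, but deviations of same-numbered libraries correlated at -0.022, 0.056 and 0.056, and siControl replicate 1 correlated best with siPSF replicate 2 (0.071), so the numbers were not taken as pairs. The causes of these shifts were not tested. ERBB3, ERBB4 and NRG4 had at most 103 reads in a library, which limits what could be detected for them.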

Other observations

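Genes that overlap a member in the RefSeq annotation were read beside it. TMEM266, a membrane protein gene that overlaps NRG4, was at 1.12, 0.705 and 0.707 CPM in siControl and at 0.471, 0.350 and 0.446 CPM in siPSF, with a log2 ratio of -0.99 (adjusted p = 0.030 by edgeR), while the few reads of NRG4 were not fewer in siPSF. FBXO22, which also overlaps NRG4, and MIEN1, which overlaps ERBB2, had log2 ratios of 0.04 and 0.09 and were not called. The noncoding genes NRG1-IT1 and LOC105379361 within NRG1 averaged 0.0261 and 0.155 CPM, and MIR4728 within ERBB2 averaged 0.0347 CPM. No gene in the table overlapped NRG2, NRG3, EGFR, ERBB3 or ERBB4.

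The transcript length implied by a gene's counts and its FPKM differed between libraries for some members. It was nearly constant for ERBB2 (5.46 to 5.54 kb), EGFR (10.86 to 10.99 kb) and ERBB4 (13.4 to 13.5 kb). It ran from 3.37 to 4.30 kb for NRG2 and from 14.7 to 24.9 kb for NRG4. For NRG3 it ran from 3.99 to 7.24 kb and for NRG1 from 5.48 to 8.23 kb, with the lowest NRG1 value in siPSF replicate 3. The difference of NRG1 between the groups was accordingly smaller on FPKM, with a log2 value of -0.19 in limma on log2(FPKM + 0.1). The cause was not tested.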
